A study of Mus musculus with 6 samples.

Results

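The Hox cluster genes are the homeobox transcription factor genes of the 4 mouse Hox clusters, and they were taken here as every row of the deposited tables whose symbol is Hox, a cluster letter from a to d and a number. This gave 39 genes of 24421 rows, all of them present in both full tables: 11 in HoxA, 10 in HoxB, 9 in HoxC and 9 in HoxD. The symbols alone chose them, and no measured value was used. RNA-seq was made from anterior palatal mesenchyme of C57BL/6 mouse embryos at E12.5 (days of embryonic development), after Dispase II had removed the epithelium. One group was wildtype (3 samples) and the other Wnt1Cre;Meis2f/f (3 samples), in which Cre expressed under Wnt1 control, active in neural crest and dorsal neural tube, acts on floxed Meis2 alleles. No group carries Wnt1Cre alone, so an effect of the transgene and one of Meis2 loss cannot be told apart. The labels describe the 3 samples of a genotype as biological replicates, and whether each is 1 embryo or a pool is not given.

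Hox proteins give cells their position along the body axis. Within a cluster, genes at the 3' end (paralog group 1) are switched on earliest and farthest forward, and genes toward the 5' end (paralog group 13) mark the tail, the distal limb and the genital tubercle. Crest cells from the midbrain and the anterior hindbrain, which populate the frontonasal region and the first pharyngeal arch and form the palatal mesenchyme, are known as Hox-negative, whereas crest of the second and more posterior arches expresses Hox genes. Meis and Pbx proteins bind DNA together with Hox proteins, and Polycomb complexes keep Hox clusters silent where they are not used. The rows of this tissue therefore allow a direct look at how much Hox RNA the palate samples held.

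The Hox rows were close to empty. The deposited base mean is the average over libraries of counts divided by each library's size factor, a depth correction. None of the 39 genes reached a base mean of 10 in the authors' deposited table, against 59.7% of all rows. In the authors' deposited table only 5 Hox genes were at 1 or above, Hoxd8 (8.36), Hoxa2 (1.91), Hoxd1 (1.59), Hoxd4 (1.5) and Hoxb3 (1.37), whereas 72.9% of all rows were. A base mean of exactly 0 was listed for 10 Hox genes (25.6%), and for 14.02% of all rows, in the authors' deposited table. The 39 base means summed to 21.6, which is 0.000141% of the summed base means of all rows, in the authors' deposited table.

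At such low levels a base mean can be turned back into reads. Dividing 1 read by a size factor and averaging gives only as many different base means as there are libraries, and these lowest values gave size factors for 6 libraries, 3 on each side of the comparison. Each of the 29 Hox rows above 0 was matched by exactly 1 set of whole-number reads over the 6 libraries. The libraries carry no replicate number and are called here, from the highest size factor to the lowest, wildtype a (1.25), b (0.846) and c (0.775) and mutant a (1.44), b (1.063) and c (0.818). Which side is the mutant was read from Meis2, the deleted gene, so every direction below rests on that reading. Its base mean was 1436 and its log2 value -0.28 (adjusted p 0.0743, DESeq2) in the authors' deposited table, and -0.33 (adjusted p 0.0213, DESeq2) with 4 libraries. The deleted exons are not named by the labels, and transcripts lacking them would still be counted. One library, mutant c, stood apart in its Hox reads, and results that rest on it are also given without it.

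The 6 libraries together held 131 Hox reads, of which Hoxd8 took 52 and the other 38 genes 79. A single read was the whole evidence for 15 of the 29 genes, 2 reads for 4 more, 3 or 4 reads for another 4, and 5 or more for 6. Reads occurred in 1 library only for 16 genes, and only Hoxd8 had reads in all 6. The 10 genes without a read were Hoxa4, Hoxa11, Hoxa13, Hoxb5, Hoxb6, Hoxb8, Hoxb9, Hoxb13, Hoxc6 and Hoxc8. A count of 0 in 6 libraries still allows up to 3 reads (a one-sided 95% Poisson limit), or a base mean of up to 0.485, so these genes were not detected at this depth rather than shown to be absent. That limit lies above the base means of the Hox genes with 1 or 2 reads, so these and the genes without reads cannot be ordered. Of the 10 genes without a read, Hoxa4, Hoxa11 and Hoxb5 have exons that overlap another annotated gene. No label says how reads in such exons were counted. The 4-library table lists 26 Hox genes above 0. The 3 it lists at 0 in addition, Hoxb7, Hoxc12 and Hoxd13, had all their reads in mutant b, which that table leaves out. Summed base means with 4 libraries were 5.04 in HoxA, 3.44 in HoxB, 2.15 in HoxC and 14.6 in HoxD in the authors' deposited table, the same order of clusters as with 6. The limit above and the read intervals below cover counting error only.

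**Figure D1:**
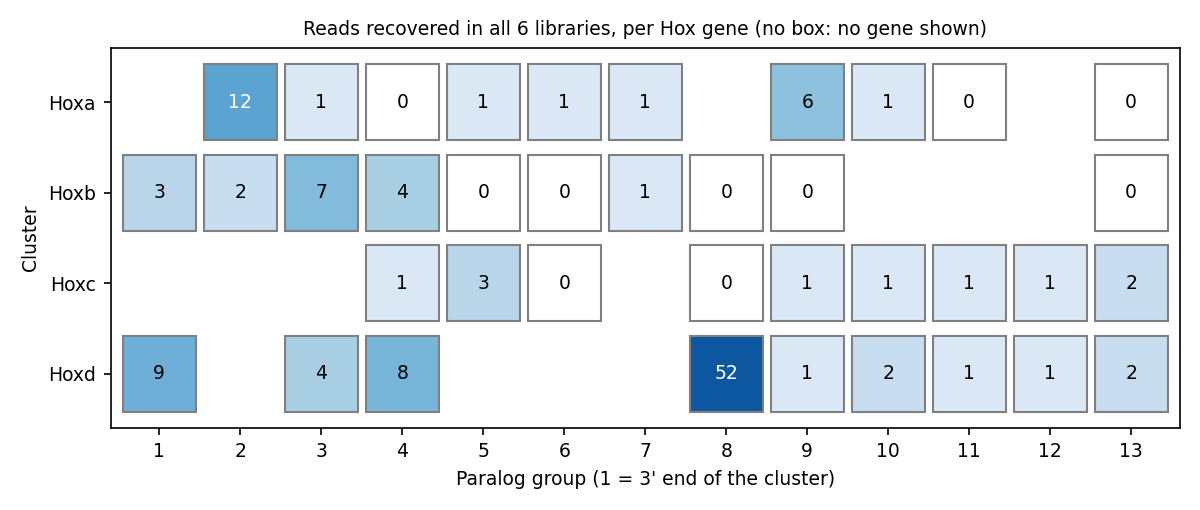
Reads recovered in all 6 libraries for 38 of the 39 Hox genes, by cluster (rows) and paralog group (columns, 1 at the 3' end), with darker blue for more reads. Hoxd8 stands alone with 52 reads, and most of the remaining reads lie in paralog groups 1 to 4.

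By cluster, HoxD held the most. All 9 HoxD genes had reads, 80 in total, and their base means summed to 13.2, or 60.9% of the Hox sum. Without Hoxd8 the HoxD reads were 28, close to the 24 of HoxA, where 8 of 11 genes had reads. HoxB had 17 reads over 5 of its 10 genes and HoxC 10 reads over 7 of its 9. Mutant c held 5 of the 10 HoxC reads, and without it the mean HoxC sum per size factor went from 1.70 to 0.814 and the HoxC genes with reads from 7 to 5. HoxA had 17 reads over 4 genes without mutant c. Per kilobase of exon the clusters carried 0.777 (HoxA), 0.646 (HoxB), 0.482 (HoxC) and 3.21 (HoxD) reads. Without Hoxd8 HoxD carried 1.26 per kilobase, still above HoxA. HoxD lies on chromosome 2 (74668310 to 74765142), HoxA on chromosome 6 (52155590 to 52260880), HoxB on chromosome 11 (96194316 to 96368256) and HoxC on chromosome 15 (102921103 to 103036852), in GRCm38.

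By position within the clusters, Hoxd8 aside, the anterior genes carried most of the reads summed over the 6 libraries, but not in every library. Of the 12 genes of paralog groups 1 to 4, 11 had reads, 52 in total or 1.45 per kilobase of exon. The 11 genes of groups 5 to 8 had 59 reads, but 52 of them belonged to Hoxd8, and the other 10 genes had 7 reads, or 0.306 per kilobase. The 16 genes of groups 9 to 13 had 20 reads over 12 genes, or 0.483 per kilobase. Paralog groups 1, 2, 3 and 4 held 13, 14, 12 and 13 reads, but 10, 12, 5 and 7 without mutant c. Without that library groups 1 to 4 together had 34 reads over 8 genes, or 0.949 per kilobase, groups 5 to 8 apart from Hoxd8 had 3, and groups 9 to 13 had 17, or 0.410 per kilobase. Per size factor, groups 1 to 4 had 9.59, 7.10 and 9.04 in wildtype a, b and c, and groups 9 to 13 had 3.995, 0 and 0. In mutant a and b the values lay the other way, with 3.48 and 3.76 in groups 1 to 4 and 4.87 and 4.70 in groups 9 to 13. These are 5 against 7 reads in mutant a and 4 against 5 in mutant b, too few to order the groups there.

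Hoxd8 (chromosome 2, 74704615 to 74707933, plus strand) is a gene of the middle of the HoxD cluster, expressed in trunk tissues. Its 52 reads have an exact 95% Poisson interval of 38.8 to 68.2. Its exons overlap those of no other gene of the GENCODE M21 annotation, although it lies inside the span of the antisense RNA gene Hoxd3os1, which had 1 read. Its neighbours in the cluster did not share its level: Hoxd9, on the 5' side, had 1 read, and Hoxd3 and Hoxd4, on the 3' side, 4 and 8. At 3.05 base mean per kilobase of exon it stood above 36.9% of the 24027 symbols with a known length. Hoxa2 was next at 1.08, Hoxd1 at 0.855 and Hoxd4 at 0.509 base mean per kilobase.

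Promoter sequences show what these rows share and where they differ. RefSeq promoters of 300 bases (250 before the start to 50 after it, GRCm38.p6) were matched for 22 of the 39 genes, 24 promoters in all. Their median number of CpG dinucleotides was 14.5, against 7 over all 32851 promoters and 19.5 over 16 promoters of facial homeobox genes. The promoters of Hoxd8 and of Hoxa13, a gene of the distal limb and genital tubercle without a read, are printed to show how widely the CpG content of Hox promoters differs, with each CpG in capitals. Hoxd8 (chr2:74704365-74704664, plus strand) has 6 and Hoxa13 (chr6:52260831-52261130, minus strand) has 45.
Hoxd8: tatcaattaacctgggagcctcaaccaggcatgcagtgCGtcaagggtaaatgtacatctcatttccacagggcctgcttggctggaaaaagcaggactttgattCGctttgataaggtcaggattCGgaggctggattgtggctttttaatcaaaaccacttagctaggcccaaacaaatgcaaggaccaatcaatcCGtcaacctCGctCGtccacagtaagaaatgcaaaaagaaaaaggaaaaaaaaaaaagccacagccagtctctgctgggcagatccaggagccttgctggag
Hoxa13: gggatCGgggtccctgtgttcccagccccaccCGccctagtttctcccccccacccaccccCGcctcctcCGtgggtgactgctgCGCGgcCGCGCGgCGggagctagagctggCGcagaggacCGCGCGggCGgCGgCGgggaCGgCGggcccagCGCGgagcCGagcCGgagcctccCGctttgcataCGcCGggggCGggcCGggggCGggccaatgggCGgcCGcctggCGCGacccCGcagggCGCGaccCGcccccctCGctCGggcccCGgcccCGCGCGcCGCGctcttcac

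Among the Hox genes with 5 or more reads, 5 promoters were matched, and 4 of them (Hoxd8, Hoxa2, Hoxd4 and Hoxa9) had fewer than 10 CpGs. Hoxd1 was the exception with 29. Of the 19 promoters of the other Hox genes 3 had fewer than 10, and the medians of these groups of promoters were 6 and 20. This split was drawn up after the values were seen and is a description of 24 promoters. The Hoxa2 promoter (chr6:52164782-52165081, minus strand) is printed because it alone held both motifs that were searched on either strand, TGACAG, the core of the site that Meis proteins bind, and TGATTGAT, a site of Pbx and Hox proteins bound together. Capitals mark them, the Pbx and Hox site as its reverse complement.
Hoxa2: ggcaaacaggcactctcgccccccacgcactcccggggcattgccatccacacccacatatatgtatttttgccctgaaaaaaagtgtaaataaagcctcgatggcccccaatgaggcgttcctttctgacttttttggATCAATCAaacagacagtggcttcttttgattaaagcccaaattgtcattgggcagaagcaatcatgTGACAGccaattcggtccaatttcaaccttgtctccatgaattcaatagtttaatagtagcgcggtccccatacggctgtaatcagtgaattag
TGACAG occurred in 2 of the 24 Hox promoters (8.33%), Hoxa2 and Hoxa3, and in 19.2% of all promoters. TGATTGAT occurred in 2 of the 24, Hoxa2 and Hoxd11, and in 0.746% of all promoters. A match is a run of letters and not a measured binding site.

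The other homeobox genes of the face set the scale for these levels. Of 24 such genes 21 had a base mean of at least 10 in the authors' deposited table, and their median was 108.7 base mean per kilobase of exon. The median of the 39 Hox genes was 0.0794 base mean per kilobase, and Hoxd8, the highest, was 35.7-fold below the facial median. Barx1, a homeobox gene of the posterior palate and stomach, was the highest of the facial list at 2305, followed by Prrx1 at 963 and Lhx8 at 915 base mean per kilobase. Only Dlx4 (0.179) and Dlx3 (1.92) of the facial list lay at or below the per-kilobase level of Hoxd8. Of 22 facial genes with an adjusted p, 8 fell and 2 rose under 0.05 (DESeq2) in the authors' deposited table. Over all genes tested 2.9% were called, in either direction. Alx4, Gsc, Lhx6, Lhx8, Msx2, Prrx1 and Shox2 were among those that fell, and Alx1 among those that rose. With 4 libraries Msx2 was not called (adjusted p 0.245, DESeq2) in the authors' deposited table. Olfactory receptor genes, a family used in the nose and chosen after the values were seen, had 744 of 1107 members at 0 (67.2%) and a highest level of 5.01 base mean per kilobase.

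**Figure D2:**
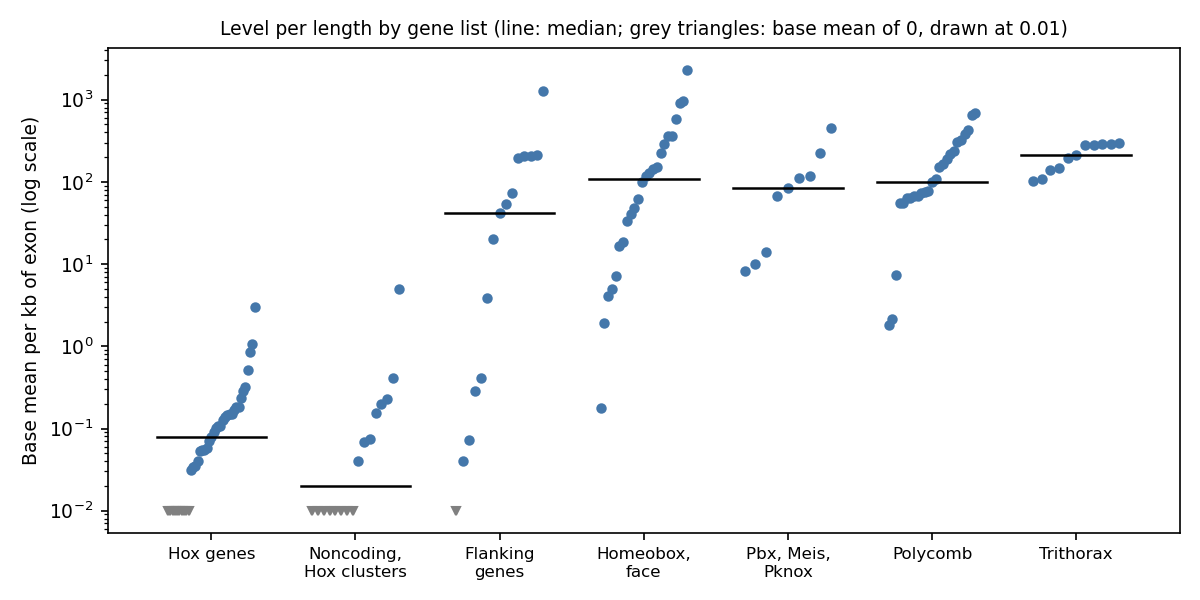
Base mean per kilobase of exon (log axis) for each gene of 7 lists. Points are genes, black lines are medians, and grey triangles are genes with a base mean of 0 drawn at 0.01. The 39 Hox genes, with a median of 0.0794, lie below nearly all facial homeobox genes, binding partners and chromatin regulators.

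The 15 genes listed as flanking the clusters lay 8.8 to 894 kb away. Of these, 10 had a base mean of at least 10 in the authors' deposited table, whereas none of the 16 noncoding genes in or beside the clusters did. The nearest flanking genes, Evx2 (8.8 kb), Ttll6 (28.9 kb) and Evx1 (52.6 kb), had 0, 6 and 1 reads. On the HoxD side, Lnp (88.9 kb away) and Mtx2 (60.7 kb away) had base means of 1783 and 786, whereas Evx2, a homeobox gene 8.8 kb beyond Hoxd13, was listed at 0 in the authors' deposited table. On the HoxC side, Smug1, a DNA repair gene 116 kb away, had a base mean of 259 in the authors' deposited table. Cbx5, which encodes the heterochromatin protein HP1 alpha and lies 155 kb away, had 11500. On the HoxA side, Hibadh (285 kb away) had a base mean of 540 and Skap2 (143 kb away) 43.8, while the nearer Evx1 had 1 read. HoxB differed, since Ttll6, Calcoco2 and Skap1 on its flanks had only 6, 1 and 19 reads. Of the 16 noncoding genes 8 were at 0 in the authors' deposited table, among them Hotair and the 6 microRNA genes Mir10a, Mir10b, Mir196a-1, Mir196a-2, Mir196b and Mir615. These rows count reads over precursor genes in a library not made for mature microRNAs. Halr1, a noncoding gene 41.9 kb outside the HoxA cluster, was the highest with 32 reads, and the noncoding genes Hottip, Hotairm1, Haglr, Hoxaas2, Hoxaas3, Hoxb5os and Hoxd3os1 had 1 to 3 each.

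Factors that act with or on Hox genes were present. All 9 genes of the Pbx, Meis and Pknox families had a base mean of at least 10 in the authors' deposited table, with Pbx2 the highest at 446 base mean per kilobase and Meis2 at 119. On the log2 scale Pbx3 fell by 0.46 (SE 0.099, adjusted p 3.3e-04, DESeq2) and Pknox2 rose by 0.55 (SE 0.14, adjusted p 0.0037, DESeq2) in the authors' deposited table. With 4 libraries Pknox2 was not called, at 0.37 and an adjusted p of 0.194 (DESeq2), in the authors' deposited table. 

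All 25 Polycomb genes and all 11 Trithorax genes had a base mean of at least 10 in the authors' deposited table. The Polycomb list had a median of 99.2 base mean per kilobase, and its highest members were Rnf2, the catalytic subunit of complex PRC1, at 682, Mtf2, an accessory subunit of PRC2, at 657 and the H3K27 methyltransferase gene Ezh2 at 429.7. The Trithorax list had a median of 214 base mean per kilobase, led by the H3K27 demethylase gene Kdm6a at 297 and the methyltransferase complex genes Dpy30 at 289 and Rbbp5 at 288. None of these 36 genes was called between the genotypes by DESeq2 in the authors' deposited table, and 0 had an unadjusted p under 0.05. Over all genes these shares were 2.9% and 7.68%. With 4 libraries Rnf2 fell by 0.26 on the log2 scale (adjusted p 0.0374, DESeq2) in the authors' deposited table. Of 7 upstream regulators the hindbrain genes Egr2 and Gbx2 were at 25.4 and 5.88 base mean per kilobase. The trunk activators Cdx1, Cdx2 and Cdx4, named after their values were seen, had 1, 0 and 19 reads.

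No Hox gene was called between wildtype and mutant. Only Hoxd8 has an adjusted p at all in the authors' deposited table, so 0 of 1 was called where 2.9% of all genes tested were. At an unadjusted p under 0.05 the count was 0 of 29, where 7.68% of all genes with a p were, in the authors' deposited table. The 4-library comparison of the authors, which uses wildtype a and c and mutant a and c, gave an adjusted p for 0 Hox genes, where 2.3% of all genes tested were called, and an unadjusted p under 0.05 for 0, where 6.72% of all genes had one. Of the 29 genes 19 had a fold change above 0 and 10 below in the authors' deposited table, with a median of 0.0041 on the log2 scale. The median was the same over the 6417 rows with a base mean up to 10, where 58.5% were above 0, and it is the fold change of a gene with a single read on the mutant side. Outside Hoxd8 these values rest on 1 to 12 reads per gene, so a difference between genotypes may have gone undetected at this depth.

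Hoxd8 had the lowest p of the family. Its reads were 3, 5 and 5 in wildtype a, b and c and 18, 10 and 11 in mutant a, b and c. Divided by the size factors these are 2.40, 5.91 and 6.46 in wildtype and 12.52, 9.41 and 13.5 in mutant. Every mutant library was above every wildtype library. The means were 4.92 ± 2.20 (SD, n = 3) and 11.8 ± 2.12 (SD, n = 3), a ratio of 2.40. The two-sided exact permutation test over the 6 libraries gave p = 0.1, the smallest that 3 against 3 allows. That test was not planned, and the separation of the libraries fixed its outcome, so it adds no support. Among 1028 genes with a base mean from 5 to 10, 10.6% were higher in every mutant library than in every wildtype library and 5.16% had a ratio of means at least as high as that of Hoxd8, the shares against which its values are read. The authors' deposited table gives a log2 fold change of 0.21 (SE 0.11), an unadjusted p of 0.0664 and an adjusted p of 0.541 (DESeq2). That log2 value is 1.15-fold, a moderated estimate that lies nearer to 0 than the ratio of the recovered reads. With 4 libraries the log2 value was 0.12 (SE 0.077, unadjusted p 0.136, DESeq2) in the authors' deposited table.

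Hoxa9, a gene of posterior trunk tissue that is also active in blood progenitors, was the only other Hox gene whose groups did not overlap. It had 1, 0 and 0 reads in wildtype a, b and c and 3, 1 and 1 in mutant a, b and c, or 0.799, 0 and 0 against 2.09, 0.941 and 1.22 per size factor. Wildtype a, mutant b and mutant c each had 1 read, so the separation rests on the division by size factors. These 2 of the 29 Hox genes with reads compare with 5.8% of the 6411 genes with reads and a base mean up to 10 that separated in the same direction, and 0 Hox genes separated in the other, where 2.57% of those genes did. Hoxa9 had 6 reads in all, and its p was 0.358 (DESeq2) in the authors' deposited table.

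Hoxa2, the gene that gives the second arch its identity and whose loss in mice causes cleft palate, had the second highest level of the family. It had 5, 2 and 1 reads in wildtype a, b and c and 2, 0 and 2 in mutant a, b and c. Per size factor the values were 3.995, 2.37 and 1.29 against 1.39, 0 and 2.45, and the groups overlapped. Its 12 reads have an exact 95% Poisson interval of 6.20 to 21.0, and its p was 0.453 (DESeq2) in the authors' deposited table. Hoxb2, its paralog, had 1 read in wildtype a and 1 in mutant a.

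The group 1 genes pattern the hindbrain and its crest. Hoxd1, also a gene of sensory neurons, had 3, 1 and 2 reads in wildtype a, b and c and 0, 1 and 2 in mutant a, b and c. Hoxb1, a marker of hindbrain rhombomere r4, had 2 reads in wildtype a and 1 in mutant b. The genotypes overlapped for both, and their p was 0.535 for Hoxd1 and 0.782 for Hoxb1 (DESeq2) in the authors' deposited table.

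The group 3 and 4 genes mark the posterior hindbrain, the posterior arches and the neck. Hoxb3 had 1, 1 and 2 reads in wildtype a, b and c and 0, 0 and 3 in mutant a, b and c. Hoxd3 had no read in wildtype and 0, 1 and 3 in mutant a, b and c. Hoxd4 had 0, 1 and 1 reads in wildtype and 1, 1 and 4 in mutant a, b and c. Hoxa3, which is required for thymus and parathyroid formation, had a single read, in mutant c. In each of these genes mutant c held the most reads. Hoxb4 had 4 reads, 1 each in wildtype b, wildtype c, mutant a and mutant c. Exons of Hoxd3 and Hoxd4 overlap in the annotation, as do those of Hoxa3 and several antisense genes, and no label says whether counting used strand, so reads cannot be split between them with certainty.

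**Figure D3:**
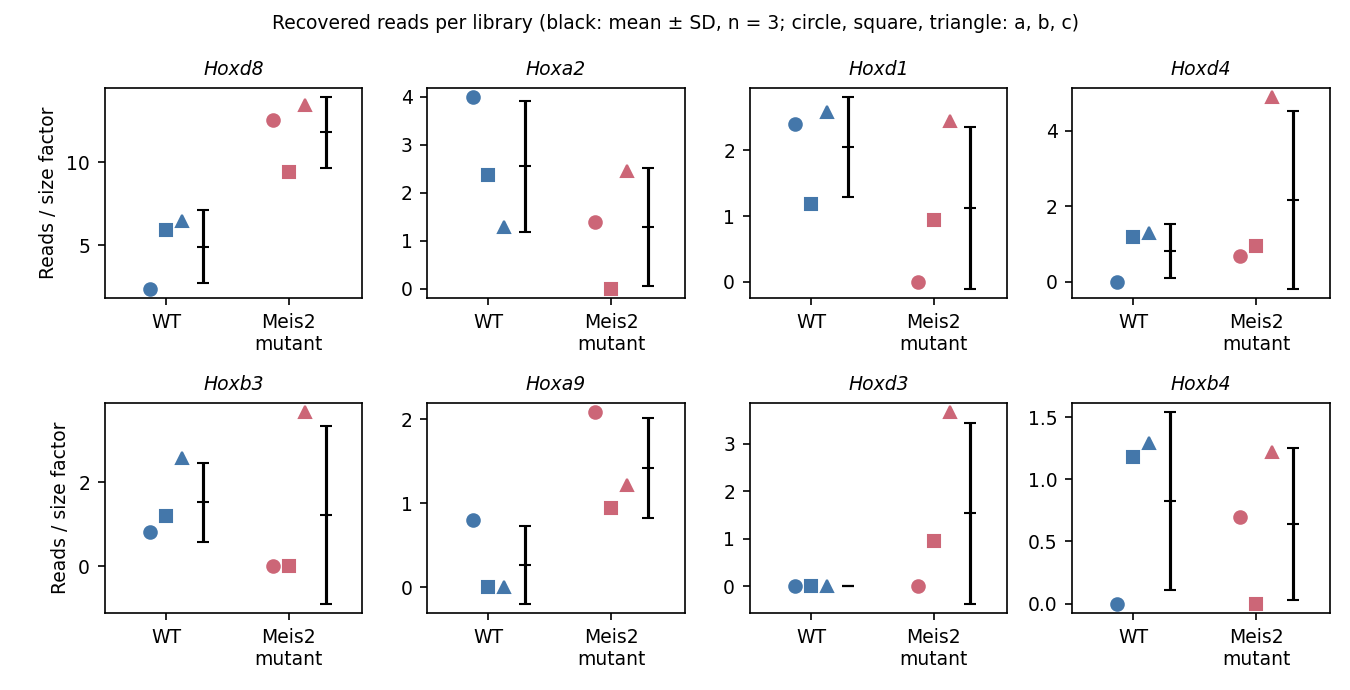
Recovered reads divided by size factor (vertical axis, own scale per panel) for the 8 Hox genes of highest base mean, by genotype. Points are libraries a, b and c, and black marks are the mean ± SD of 3 libraries. Hoxd8 and Hoxa9 do not overlap between genotypes, and mutant c is the highest point for Hoxd4, Hoxb3 and Hoxd3.

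The posterior genes were spread thinly. Besides Hoxa9, the 15 other genes of groups 9 to 13 had at most 2 reads each. Hoxd13, a gene of digits and genital tubercle, had 2 reads in mutant b, and Hoxc13, a hair follicle gene, 1 in mutant b and 1 in mutant c. Hoxd10 had 1 in wildtype a and 1 in mutant a. Hoxc9, Hoxd11 and Hoxd12 had 1 read each in wildtype a, and Hoxa10, Hoxc11 and Hoxd9 1 each in mutant a. Hoxc5, a gene of the neck, had 1 read in mutant a and 2 in mutant c.

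Summed over the family, the mutant libraries held 88 Hox reads and the wildtype libraries 43. Per size factor the sums were 16.0, 13.01 and 15.5 in wildtype a, b and c and 22.3, 18.8 and 44.0 in mutant a, b and c. The means were 14.8 ± 1.59 (SD, n = 3) in wildtype and 28.4 ± 13.7 (SD, n = 3) in mutant. Mutant c stood apart from the other 5 libraries. Without Hoxd8 the sums were 13.58, 7.10 and 9.04 in wildtype and 9.74, 9.41 and 30.6 in mutant, and the genotypes overlapped. Leaving mutant c out as well, the mutant mean without Hoxd8 was 9.57, against 9.91 in wildtype, so the excess outside Hoxd8 rested on 1 library.

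Mutant c also held reads of more Hox genes than any other library. It had reads of 16 Hox genes, against 6 to 12 in the other 5, although its size factor is among the lowest. For 6 genes, among them Hoxa3, Hoxa5, Hoxa6, Hoxc4 and Hoxc10, its single read was the only one. It held 6 of the 15 Hox genes with a single read, whereas 14.1% of the 1236 genes of the whole table with a single read fell in this library. By position, its reads per size factor in groups 1 to 4 were 22.0, against 3.48 to 9.59 in the other libraries, and in groups 9 to 13 3.67, within the range of 0 to 4.87 of the others.

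**Figure D4:**
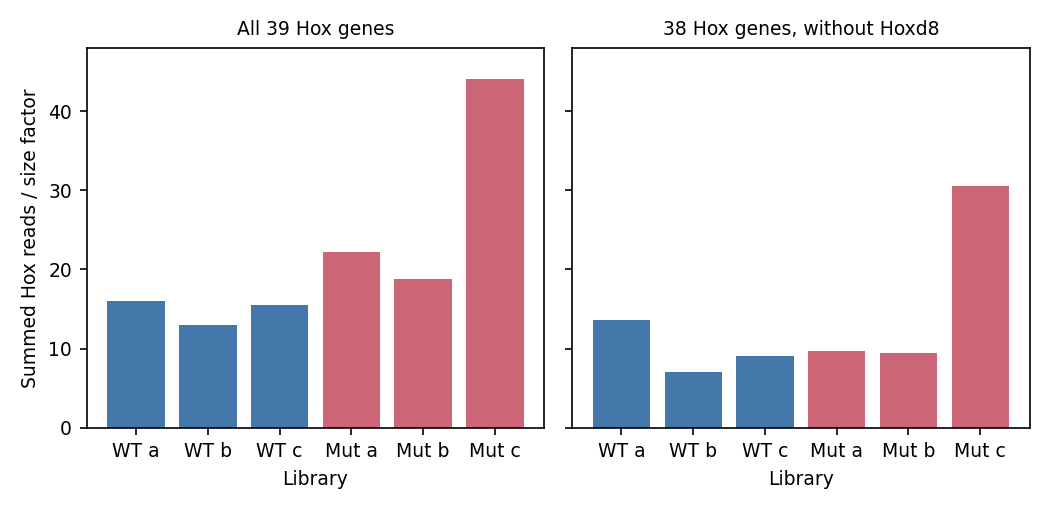
Summed Hox reads divided by size factor in each of the 6 libraries (bars from 0; blue wildtype, red mutant), for all 39 genes and without Hoxd8. With Hoxd8 removed, mutant c stands at 30.6 and the other 5 libraries lie between 7.10 and 13.58.

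Markers of other tissues moved with these values in some lists and not in others, and single marker genes are named here after their values were seen. The 9 crest mesenchyme markers all had a base mean of at least 48.7 in the authors' deposited table. Other cell types were represented, with base means from 101.9 to 242 for the 6 epithelial markers and from 478 to 1978 for the 5 endothelial markers in the authors' deposited table. Over all genes tested 2.9% were called with 6 libraries and 2.3% with 4, in either direction. These shares apply to the marker counts below. Of 7 muscle markers 5 rose (adjusted p under 0.05, DESeq2) in the authors' deposited table, but 2, Myog and Tnnt1, with 4 libraries. Of these 7, 4 had base means low enough to recover reads, and their sum per size factor was 209 in mutant c, 112 and 120 in mutant a and b and 53.5 to 72.3 in wildtype. The 4 heart markers, among them Tnnt2 and Myh6, which embryonic skeletal muscle may also express, summed to 157 in mutant c and 18.4 to 80.0 elsewhere. The defining heart genes Nkx2-5 and Gata4 had 1 and 2 reads in all 6 libraries. Of 5 somite markers 3 were recovered, mostly Meox1, and summed to 48.9 in mutant c and 18.1 to 34.3 elsewhere. The more abundant somite markers Tbx18 and Foxc2 had log2 values of -0.38 and 0.42 (adjusted p 0.142 and 0.0507, DESeq2) in the authors' deposited table. Their part in the Hox values was not tested. Of 7 markers of blood progenitors and macrophages Csf1r and Adgre1 rose (adjusted p 9.4e-04 and 0.0392, DESeq2) and 0 fell in the authors' deposited table, and with 4 libraries Csf1r alone was called. Ptprc, Gata2, Myb, Cd34 and Runx1 had log2 values of 0.26, 0.40, 0.03, 0.05 and -0.23 in the authors' deposited table and were not called. The part of this list in the Hoxd8 values was not tested.

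The recovered neural markers did not follow the Hox sum, and limb markers moved in both directions. The 8 hindbrain and spinal cord markers summed to 35.5 per size factor in mutant c, the lowest of the 6 libraries. Their sums were 41.0 and 43.3 in mutant a and b and 75.1 to 131 in wildtype, with Pax2 at 0. The spinal cord genes Olig2, Mnx1, Lbx1, Lhx1 and Lhx5 had 1 to 3 reads each in all 6 libraries. Of 5 limb markers 4 were recovered, nearly all Tbx4 and Hand2. They summed to 22.0 in mutant c, 26.4 and 29.2 in mutant a and b and 40.7 to 52.9 in wildtype. Tbx15, by far the most abundant, was too high to recover and rose by 0.83 on the log2 scale (adjusted p 6.3e-13, DESeq2), while Hand2 fell by 0.58 (adjusted p 1.9e-04, DESeq2), in the authors' deposited table. The forelimb gene Tbx5 had 2 reads in all. In bulk tissue, fewer cells of a type and less RNA per cell cannot be told apart.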

How the data were processed

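RNA-seq of 6 samples, 3 wildtype and 3 Wnt1Cre;Meis2f/f, was deposited as tables of the authors' comparison with no values per library. Per the submitters' processing notes the authors used HISAT2, featureCounts and DESeq2 with builds GRCm38 and mm10. Versions, settings and strand use were not stated in any label or header. The base mean is a signal deposited by the authors, counts divided by size factors and averaged. The deposited fold changes and standard errors are on the log2 scale, and the Wald statistic is a deposited score. The p-values and adjusted p-values are deposited by the authors from DESeq2. The design text names 1 library pair per table, but single-read values show 6 libraries in the first full table and 4 of them in the second. Another table repeats rows of the first and was not used. The planned test was the authors' own, called at an adjusted p under 0.05.

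Reads were recovered by finding whole numbers per library that match both base means (tolerances 1e-07 and 1e-10) in Python 3.11.15 with numpy 2.4.6. All 6411 genes with reads and a base mean up to 10 that both tables name had exactly 1 solution. Tested on simulated data of 5821 genes, the reads were right for 5821. The simulation assumed 6 libraries with 4 of them in the second table, so it tests the solving and not that structure. Listed genes up to a base mean of 50 were solved likewise. Size factors ran from 0.775 to 1.44; total reads per library are unknown. The permutation test used scipy 1.17.1. Exon length is the union of GENCODE M21 exons, matched for 24027 symbols. PCR reads without molecular identifiers are not independent molecules. Values were given for the 12 Hox genes of highest base mean, any called or with an unadjusted p under 0.05, and groups 1 to 3, and other members by their reads. Genes outside the family were named if Meis2, flanking, called or among the 3 highest of a list per kilobase. Members and lists were chosen with earlier results of these data known. Alternatives were the 4-library table, other minimum base means, other adjustments and tolerances, and leaving out each library. Values of some single genes are not reported here.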

Additional observations from a re-analysis of the deposited data

How the results depend on the processing

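The number of Hox genes with reads was 29 with 6 libraries and 26 with 4, and all 29 were solved uniquely with tolerances 10 times wider or narrower. Counts at a minimum base mean of 10, 5 and 1 were 0, 1 and 5, and 0 at 100 and with 4 libraries. The summed base mean was 21.6, 25.2 with 4 libraries and 13.2 without Hoxd8, the last chosen after the data were examined. As a share of all base means it was 0.000141%, 0.00015% with 4 libraries and 0.000164% without Rn45s. Calls between genotypes stayed at 0 under the 5 alternatives tried (unadjusted p, p adjusted over all rows or over rows at 10 or above, and 4 libraries with either p). Rows at 10 or above hold no Hox gene and the 4-library table gives none an adjusted p, so those alternatives could make no call, and no median exists at a minimum of 10. The median log2 fold change of 0.0041 became -0.011 among the 5 genes at 1 or above, and Hoxb3 and Hoxb4 went from -0.011 and -0.0055 to 0.0012 and 0.0051 with 4 libraries; none of these passed a test. Leaving out each library in turn, the Hoxd8 ratio of 2.40 ran from 1.91 to 2.84, the ratio of all Hox reads of 1.91 from 1.39 (without mutant c) to 2.24, and that without Hoxd8 of 1.67 from 0.966 (without mutant c) to 2.05. No paired analysis was possible because the tables hold no replicate numbers for their libraries. Depth limits every Hox gene here, since those detected had 1 to 52 reads over 6 libraries. The paralog sums of groups 5, 6, 7, 10, 11 and 13, with 1 to 4 reads each, moved by over 1.5 times with 4 libraries. Groups 5, 6, 10 and 11 have all their reads in these 4 libraries, where 1 read weighs more (0.316 against 0.204 for mutant c). Their rise follows from that average alone, whereas groups 7 and 13 fell because reads of mutant b were left out. Without mutant c the HoxC sum and those of groups 3, 4, 5 and 6 fell by over 1.5 times, and groups 7, 11, 12 and 13 did so without 1 of wildtype a, mutant a or mutant b.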
